A study of Saccharomyces cerevisiae with 6 samples.

Results

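The core histone genes of Saccharomyces cerevisiae are 8 genes that encode H2A (HTA1 and HTA2), H2B (HTB1 and HTB2), H3 (HHT1 and HHT2) and H4 (HHF1 and HHF2), with 2 copies per protein. They were taken from the nuclear mRNA class of the deposited tables by name, and 2 of them by position as described below, and are 8 of 5605 nuclear mRNA features and of 5667 listed features. The RNA came from mitochondria isolated from strain CEN.PK113-7D, a haploid laboratory strain with no added mutation in the labels. The compared groups were 3 cultures grown on ethanol (an ethanol-glycerol medium) and 3 grown on glucose, all in shake flasks with synthetic medium and collected during mid-exponential growth. The series text describes them as biological triplicates, so p-values here measure the spread between cultures. The RNA was given an enzymatic poly(A) tail and read by Nanopore direct RNA sequencing, in which the RNA strand itself passes the pore and no cDNA copy is needed. Values of a group are given in the order of replicates 1, 2 and 3.

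Histone proteins wrap DNA into nucleosomes, each built from pairs of H2A-H2B and H3-H4 units, and their mRNAs are made mainly in S phase, when new DNA has to be packaged. In budding yeast each H2A gene lies beside an H2B gene, and each H3 gene beside an H4 gene, and the partners are transcribed away from each other out of a shared promoter region. Yeast histone mRNAs carry a poly(A) tail, unlike most histone mRNAs of animals, and they are short and without introns. They are translated in the cytosol and their products work in the nucleus, so in this mitochondrial fraction they are nuclear-encoded RNA.

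Both tables list 2 features named HHT1 and 2 named HHF1, and no feature named HHT2 or HHF2. The copies on chromosome 14 lie between SIW14 and KTR5, the neighbours of HHT2 and HHF2 in the RefSeq annotation of strain S288C, and have been called HHT2 and HHF2 here. On the CEN.PK113-7D assembly of the tables, HTB1 (chromosome 4, 893908 to 894303, minus strand) faces away from HTA1 (895121 to 895519, plus strand). HTA2 (chromosome 2, 231031 to 231429, minus strand) is the partner of HTB2 (232128 to 232523, plus strand). HHF1 (chromosome 2, 251008 to 251319, minus strand) is the partner of HHT1 (251967 to 252377, plus strand). HHT2 (chromosome 14, 565347 to 565757, minus strand) is the partner of HHF2 (566434 to 566745, plus strand). Each feature has the length of the coding sequence in RefSeq, 399 nt for H2A, 396 nt for H2B, 411 nt for H3 and 312 nt for H4.

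How far the 2 copies of a type can be told apart by a read depends on their sequence, so the last 90 coding bases are shown. Direct RNA reads of an unbroken mRNA reach this end first, after the 3′ UTR. Whether reads began at broken ends was not examined. They are from RefSeq, S288C assembly R64, 5′ to 3′ on the coding strand, and capitals mark bases that differ from the paralog.
HTA1 (chrIV:915839-915928, plus strand): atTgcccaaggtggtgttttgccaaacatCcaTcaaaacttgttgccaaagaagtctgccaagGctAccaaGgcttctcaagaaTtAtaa
HTA2 (chrII:235394-235483, minus strand): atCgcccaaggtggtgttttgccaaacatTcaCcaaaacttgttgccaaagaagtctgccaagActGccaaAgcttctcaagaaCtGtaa
HTB1 (chrIV:914317-914406, minus strand): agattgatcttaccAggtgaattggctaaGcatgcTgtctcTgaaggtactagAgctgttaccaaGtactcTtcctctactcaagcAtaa
HTB2 (chrII:236798-236887, plus strand): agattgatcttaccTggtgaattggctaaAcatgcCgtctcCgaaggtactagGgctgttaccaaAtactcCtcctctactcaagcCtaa
HHT1 (chrII:256652-256741, plus strand): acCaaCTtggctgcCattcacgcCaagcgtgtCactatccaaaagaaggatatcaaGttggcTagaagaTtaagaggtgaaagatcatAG
HHT2 (chrXIV:575640-575729, minus strand): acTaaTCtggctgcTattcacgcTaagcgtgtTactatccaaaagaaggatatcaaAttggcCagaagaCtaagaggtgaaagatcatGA
HHF1 (chrII:255373-255462, minus strand): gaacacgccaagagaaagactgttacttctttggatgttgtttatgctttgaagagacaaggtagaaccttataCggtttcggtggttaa
HHF2 (chrXIV:576949-577038, plus strand): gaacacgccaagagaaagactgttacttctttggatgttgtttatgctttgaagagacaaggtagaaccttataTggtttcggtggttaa
Over the whole coding sequence HTA1 and HTA2 differ at 25 of 399 positions (93.7% identity) and HHT1 and HHT2 at 28 of 411 (93.2%). HTB1 and HTB2 differ at 48 of 396 positions (87.9%). HHF1 and HHF2 differ at 8 of 312 positions (97.4%), with an identical run of 80 nt, so the split between the H4 copies is the least certain of the 4. How reads that match both copies were counted is not given in the sources used here. Of the 48 member values, 46 were whole numbers of reads (within 0.01 read), the exceptions being 58.5 reads for HTA1 in glucose replicate 1 and 99.5 reads for HTB1 in glucose replicate 3.

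The shared promoter regions are shown at the element bound by Spt10, an activator of the histone genes that recognises pairs of short repeats. The search string was TTCC, then 6 bases of any kind, then TTC, any base and C, sought on both strands of the region between the 2 start codons in RefSeq R64, with 10 flanking bases; capitals mark the fixed letters, and each site is written on the strand where it matched.
HTA1-HTB1 (chrIV:915104-915138, plus strand): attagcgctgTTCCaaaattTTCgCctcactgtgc
HTA1-HTB1 (chrIV:915127-915161, minus strand): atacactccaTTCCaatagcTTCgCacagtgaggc
HTA2-HTB2 (chrII:236098-236132, minus strand): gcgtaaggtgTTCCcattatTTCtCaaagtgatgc
HHT1-HHF1 (chrII:255934-255968, minus strand): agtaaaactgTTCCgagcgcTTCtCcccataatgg
HHT2-HHF2 (chrXIV:576336-576370, minus strand): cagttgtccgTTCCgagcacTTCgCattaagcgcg
HTA1-HTB1 had 2 matches, which do not overlap, and the other 3 loci had 1 each. Among the upstream windows of the same lengths (817, 699, 646 and 676 nt) of all protein-coding genes with such a window, between 3.75% and 4.77% held at least 1 match. A match is a stretch of letters and was not measured as a bound site. The search allowed no mismatch, so elements that differ from the string were not counted, and the number of matches is not the number of elements.

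Levels are given as nCPM, the deposited CPM rescaled to a sum of 1000000 over nuclear mRNA without ENO2. The feature ENO2, an enolase gene, was left out because it took 4.94%, 49.9% and 21.9% of all CPM in ethanol and 2.63% to 6.81% in glucose. The source of this spread was not tested, and totals that keep ENO2 move with it. A read was worth 121, 52.4 and 15.9 nCPM in ethanol replicates 1, 2 and 3, and between 8.25 and 10.3 nCPM in the glucose libraries. The nuclear mRNA without ENO2 amounted to 8284, 19087 and 63081 reads in ethanol, and to 121147, 97474 and 107311 in glucose. Reads of the 8 histone genes came to 30, 69 and 537 in the ethanol libraries and to 771.5, 617 and 523.5 in the glucose libraries. Ethanol replicate 3 thus carries most of the ethanol reads, and single-gene values of ethanol replicate 1 rest on 0 to 16 reads. A gene without reads could hold up to 3 reads, which is 362 nCPM in ethanol replicate 1. Features encoded in mitochondria, the labelled source, took 3.15% to 12.6% of the CPM in ethanol and 6.41% to 7.50% in glucose. Whole-cell RNA was not measured, so the level of an mRNA in the cell and the amount that came with the mitochondria cannot be told apart.

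For the core histone mRNAs as a group, the difference between ethanol and glucose was smaller than the spread of the libraries. They made up 0.362%, 0.361% and 0.851% of nuclear mRNA without ENO2 in ethanol, a mean of 0.525% ± 0.283 (SD, n = 3), against 0.637%, 0.633% and 0.488% in glucose, a mean of 0.586% ± 0.0849 (SD, n = 3). Ethanol replicates 1 and 2 lay below every glucose library and ethanol replicate 3 above every one. The difference in means was -0.061 percentage points (p = 0.8 in a two-sided exact permutation test, which cannot give less than 0.1 with 3 against 3), and it was 0.0205 without ethanol replicate 1 and 0.0208 without ethanol replicate 2. With ENO2 kept in the total, the share was 0.0598%, 0.0452% and 0.256% in ethanol and 0.418%, 0.456% and 0.385% in glucose, a ratio of 0.287 with no overlap (exact permutation p = 0.1). As a share of all CPM the ratio was 0.576, with overlap (exact permutation p = 0.3). The exact 95% binomial intervals of the share without ENO2 were 0.244% to 0.517% in ethanol replicate 1, 0.281% to 0.457% in replicate 2 and 0.781% to 0.926% in replicate 3, so the third library stood apart from its group by more than counting error, which is all that these intervals cover.

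**Figure D1:**
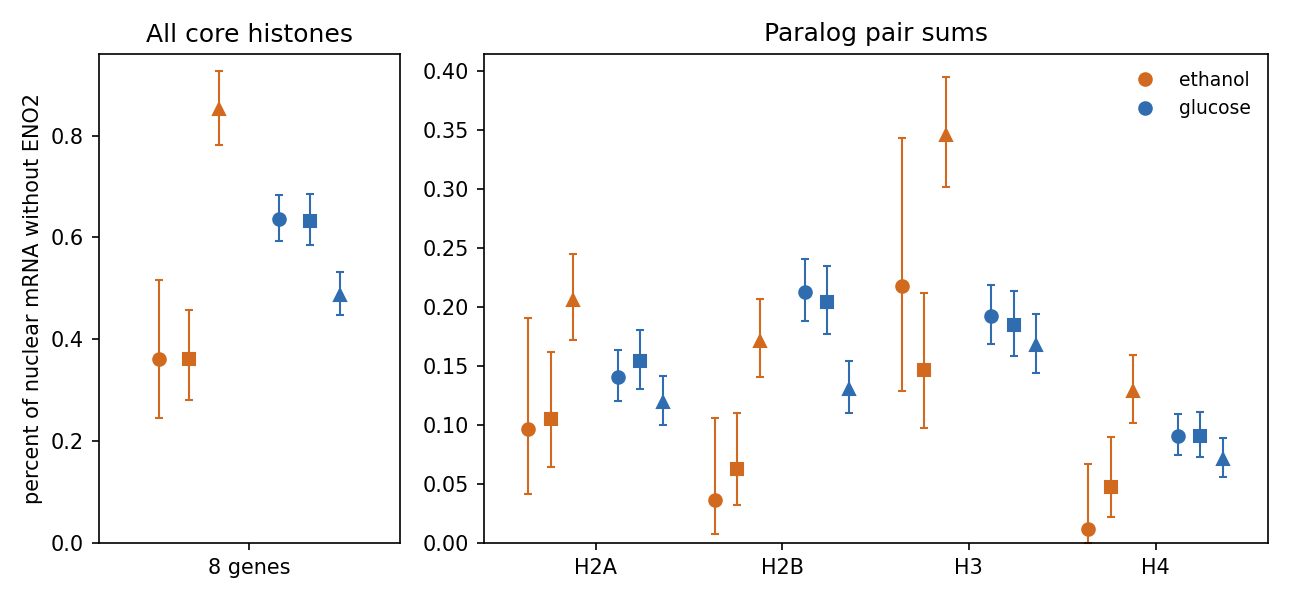
Share of nuclear mRNA without ENO2 (percent, y axis) taken by all 8 core histone genes (left) and by each paralog pair (right), 1 point per library with its exact 95% binomial interval; ethanol in orange, glucose in blue, and circles, squares and triangles for replicates 1, 2 and 3. Ethanol replicate 3 is at 0.851% for the 8 genes and the other ethanol libraries are at 0.361% and 0.362%, on both sides of the glucose libraries at 0.488% to 0.637%.

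The 4 histone types had unlike values once paralogs were summed. H2B took 0.0362%, 0.0629% and 0.171% of nuclear mRNA in ethanol and 0.213%, 0.204% and 0.13% in glucose, a ratio of means of 0.494 (exact permutation p = 0.2; 0.8 after Benjamini-Hochberg adjustment over the 4 types). Only ethanol replicate 3 reached into the glucose range. H3 took 0.217%, 0.147% and 0.346% in ethanol and 0.192%, 0.185% and 0.168% in glucose, a ratio of 1.30 (exact permutation p = 0.5, adjusted 0.8). The sign for H3 depends on the total: it was lower in ethanol as a share of all CPM, of nuclear mRNA with ENO2 or of short nuclear mRNA. The H3 difference of 0.0549 percentage points was 0.00042 without ethanol replicate 3 and 0.0999 without ethanol replicate 2. H2A averaged 0.136% ± 0.061 in ethanol and 0.138% ± 0.0175 in glucose (mean ± SD of 3 libraries; exact permutation p = 1). H4 averaged 0.0625% ± 0.0597 in ethanol and 0.084% ± 0.0114 in glucose (mean ± SD of 3 libraries; exact permutation p = 0.6, adjusted 0.8).

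Grouped by shared promoter, none of the 4 loci separated the carbon sources. HHT2-HHF2 averaged 0.217% ± 0.0821 of nuclear mRNA in ethanol and 0.157% ± 0.00772 in glucose (mean ± SD of 3 libraries; exact permutation p = 0.4). HTA2-HTB2 averaged 0.0792% ± 0.0456 in ethanol and 0.137% ± 0.0324 in glucose (exact permutation p = 0.2). HTA1-HTB1 averaged 0.147% ± 0.0867 and 0.183% ± 0.0308 (exact permutation p = 0.5), and HHT1-HHF1 0.0821% ± 0.0771 and 0.108% ± 0.0221 (exact permutation p = 0.6), in ethanol and in glucose. After adjustment over the 4 loci each p was 0.6, and the direction for HHT2-HHF2 turned with 3 of the other totals. The HHT2-HHF2 difference of 0.0596 percentage points was 0.0159 without ethanol replicate 3.

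Gene by gene, HTA1 and HHT2 were the 2 members with a higher mean in ethanol. HHT2, the chromosome 14 copy of H3, had 1932, 1310 and 2505 nCPM in ethanol and 1337, 1159 and 1221 nCPM in glucose. The ethanol values rest on 16, 25 and 158 reads, and ethanol replicate 2 lay within the glucose range. HTA1, one of the 2 genes of H2A, had 604, 629 and 1474 nCPM in ethanol and 483, 605 and 559 nCPM in glucose. Ethanol replicate 1 lay within the glucose range, replicate 2 just above it and replicate 3 far above. The limma log2 fold changes were 0.56 ± 0.29 (SE) for HHT2 and 0.56 ± 0.37 for HTA1, with adjusted p-values of 0.157 and 0.266; on the deposited CPM and with ENO2 kept in the total both signs turned negative. Without ethanol replicate 3 the log2 fold change was 0.35 for HHT2 and 0.16 for HTA1.

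The other copy of H2A and both copies of H2B were lower in ethanol on average. HTB1, an H2B gene, had 241, 472 and 983 nCPM in ethanol and 1436, 1477 and 927 nCPM in glucose. Ethanol replicate 3 lay just above glucose replicate 3 and the other ethanol libraries far below all 3. HTA2 had 362, 419 and 587 nCPM in ethanol and 924, 934 and 634 nCPM in glucose, and was the 1 member whose groups did not overlap. HTB2, the second H2B gene, had 121, 157 and 729 nCPM in ethanol and 693, 564 and 373 nCPM in glucose, with ethanol replicate 3 above all glucose libraries. The limma log2 fold changes were -1.27 ± 0.45 (SE) for HTB1, -0.80 ± 0.31 for HTA2 and -0.94 ± 0.56 for HTB2, with adjusted p-values of 0.0567, 0.0737 and 0.215. That of HTB2 was -1.62 without ethanol replicate 3 and -0.52 without ethanol replicate 1, and that of HTB1 -0.83 without ethanol replicate 1.

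The other copy of H3 and both copies of H4 had 1 pattern over the libraries. HHT1, the chromosome 2 copy of H3, had 241, 157 and 951 nCPM in ethanol and 586, 687 and 457 nCPM in glucose. HHF1, an H4 gene, had 0, 367 and 745 nCPM in ethanol and 586, 554 and 373 nCPM in glucose. HHF2, the other H4 gene and the lowest member per length in both groups, had 121, 105 and 539 nCPM in ethanol and 322, 349 and 335 nCPM in glucose. For all 3 genes ethanol replicates 1 and 2 were below every glucose library and ethanol replicate 3 above every one. The ethanol reads were 2, 3 and 60 for HHT1, 0, 7 and 47 for HHF1, and 1, 2 and 34 for HHF2. HHF1 in ethanol replicate 2 was only just below glucose replicate 3, and its value of 0 in ethanol replicate 1 could be up to 362 nCPM. The limma log2 fold changes were -0.66 ± 0.54 (SE) for HHT1, -1.10 ± 0.86 for HHF1 and -0.63 ± 0.50 for HHF2, with adjusted p-values of 0.365, 0.338 and 0.354. Without ethanol replicate 3 they were -1.33, -1.92 and -1.24, and without ethanol replicate 2 those of HHT1 and HHF2 were -0.20 and -0.28.

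**Figure D2:**
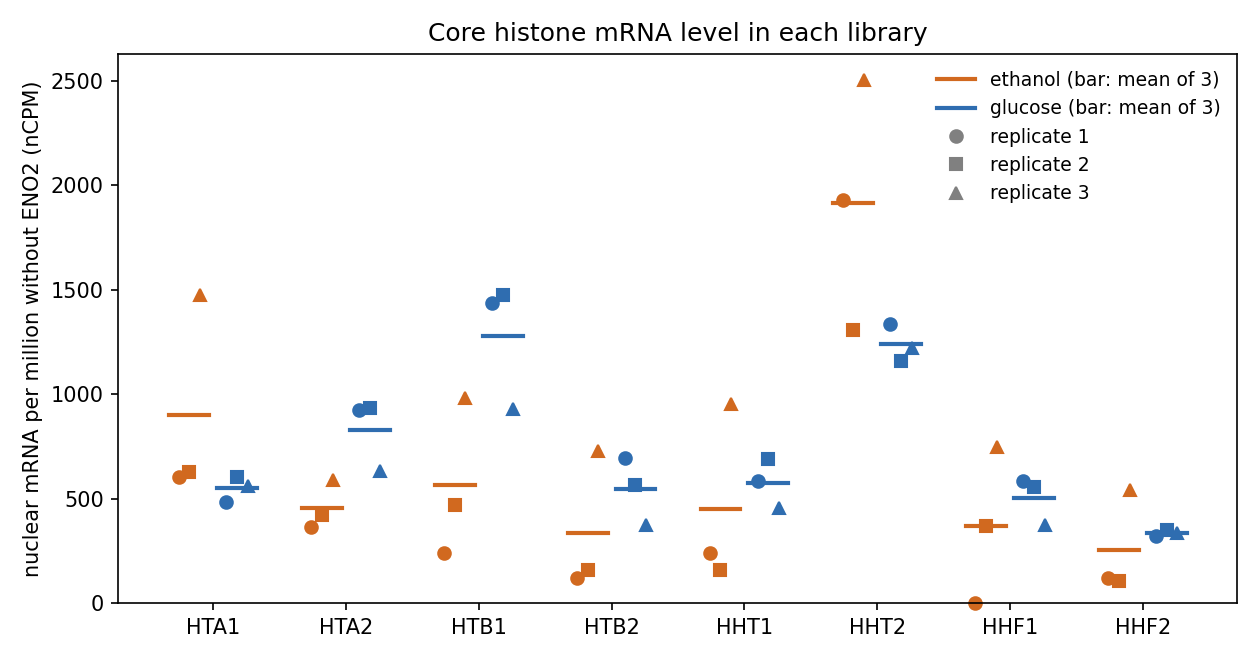
Level of each core histone mRNA in nCPM (y axis, linear) in every library, with ethanol (orange) left of glucose (blue); circles, squares and triangles are replicates 1, 2 and 3 and the horizontal bar is the mean of 3. Ethanol replicate 3 is the highest ethanol library for all 8 genes, and the points highest in the plot are HHT2 in ethanol replicates 3 and 1, at 2505 and 1932 nCPM.

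All 8 members passed the filter on low values and none passed the limma threshold of an adjusted p of 0.05. In the same fit, 675 of 2008 nuclear mRNAs passed (33.6%), 356 with a higher level in ethanol (17.7%) and 319 with a lower level (15.9%). At an unadjusted limma p under 0.05 there were 2 members, HTA2 and HTB1, against 46.5% of all features. Groups that do not overlap were found for 1 of the 8 members and for 52.9% of all features. The median log2 fold change of the 8 members was -0.73, beside -0.03 over all features tested. The calls depend on the scaling and on ethanol replicate 3: without that library 5 members were lower past the threshold (HTA2, HTB1, HTB2, HHT1 and HHF2, limma adjusted p between 0.00514 and 0.0171), in a fit that called 25.3% of all features lower and 50.2% in either direction. Without ethanol replicate 2, HHT2 was higher past the threshold, beside 14.4% of all features. Other scalings changed the split of all calls to 282 higher and 422 lower (libraries centred on their median), 42 and 199 (deposited CPM) or 41 and 706 (ENO2 kept in the total), with median log2 fold changes over all features of -0.24, -1.43 and -1.76. Without glucose replicates 1, 2 and 3 the count of all calls was 340, 287 and 287.

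The composition of the histone mRNA does not depend on the chosen total, and here the carbon sources were further apart, in a design that cannot reach a p below 0.1. H2A and H2B together made up 36.7%, 46.4% and 44.3% of the core histone CPM in ethanol and 55.5%, 56.6% and 51.1% in glucose, without overlap. The means were 42.5% ± 5.12 in ethanol and 54.4% ± 2.91 in glucose (± SD over 3 libraries), a difference of -11.9 percentage points (two-sided exact permutation p = 0.1, the lowest possible with 3 against 3), with -13.9 and -9.05 as the extremes on leaving out single libraries. The lower part lay in H2B, with 10%, 17.4% and 20.1% of the histone CPM in ethanol and 33.4%, 32.3% and 26.6% in glucose. H2A had 26.7%, 29% and 24.2% in ethanol and 22.1%, 24.3% and 24.5% in glucose, which overlap. In ethanol H2B rests on 3, 12 and 108 reads and H2A on 8, 20 and 130, of 30, 69 and 537 histone reads. With so few reads, the shares of ethanol replicates 1 and 2 are uncertain, and no counting interval was computed for them. H3 had 60%, 40.6% and 40.6% in ethanol and 30.2%, 29.2% and 34.4% in glucose.

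Single genes showed where the composition differed, given here as a description. HHT2 alone made up 53.3%, 36.2% and 29.4% of the histone CPM in ethanol and 21%, 18.3% and 25% in glucose. HTA1 made up 16.7%, 17.4% and 17.3% in ethanol and 7.58%, 9.56% and 11.5% in glucose. The ethanol values rest on 5 of 30, 12 of 69 and 93 of 537 reads. Counting error is wider than the gaps between them, so their closeness does not show a stable share. HTB1 made up 6.67%, 13% and 11.5% in ethanol and 22.6%, 23.3% and 19% in glucose, and HTA2 10%, 11.6% and 6.89% in ethanol and 14.5%, 14.7% and 13% in glucose. The ethanol and glucose libraries overlapped for HTB2, HHT1, HHF1 and HHF2. As parts of 100%, the shares are not independent of one another. The exact 95% interval of the HHT2 share was 34.3% to 71.7% in ethanol replicate 1, whose 30 reads make it the least certain, and 25.6% to 33.5% in ethanol replicate 3.

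**Figure D3:**
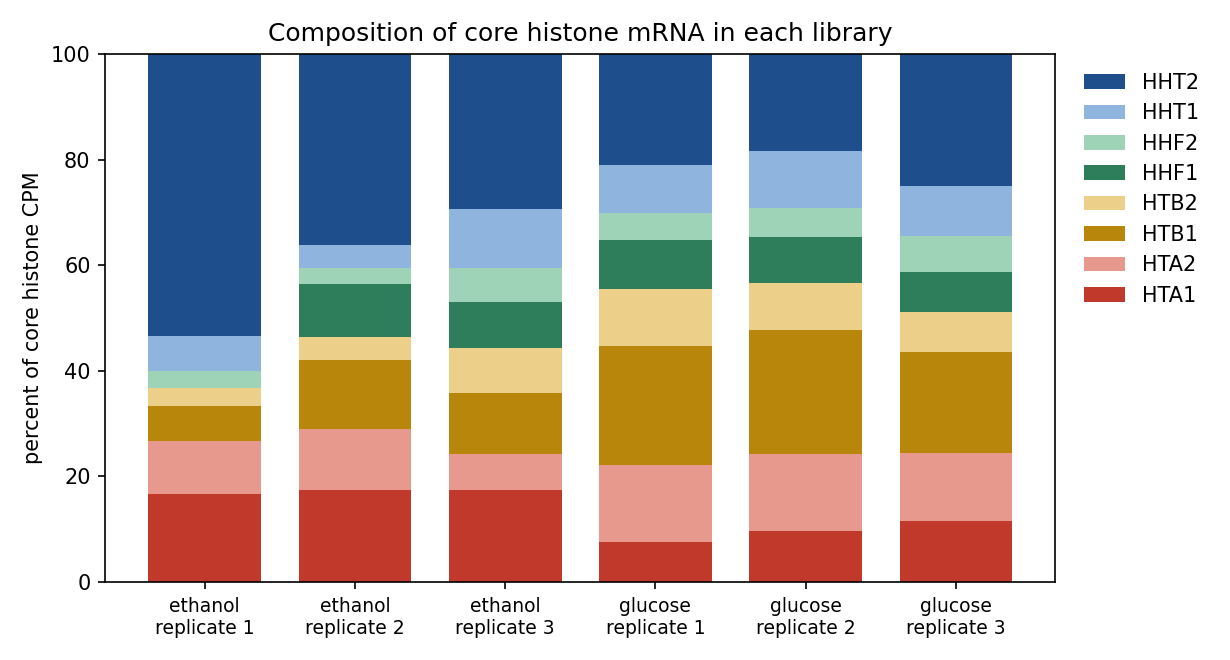
Composition of core histone mRNA: each bar is 1 library and its segments are the percent of the summed core histone CPM (y axis) from each gene. HHT2 (dark blue) takes 29.4% to 53.3% in the ethanol bars and 18.3% to 25% in the glucose bars, and HTB1 (dark yellow) 6.67% to 13% and 19% to 23.3%.

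Of the 4 paralog splits, that of H2A was the 1 whose groups did not overlap. HTA1 supplied 62.5%, 60% and 71.5% of the H2A CPM in ethanol and 34.3%, 39.3% and 46.9% in glucose, with no overlap. The means were 64.7% ± 6.07 in ethanol and 40.2% ± 6.32 in glucose (± SD over 3 libraries), a difference of 24.5 percentage points (two-sided exact permutation p = 0.1, the lowest possible with 3 against 3; 0.4 after adjustment over the 4 splits), with 21.1 and 27.9 as the extremes on leaving out single libraries. The reads behind it were 5 of 8, 12 of 20 and 93 of 130 in ethanol, against a rounded 58 of 170, 59 of 150 and 60 of 128 in glucose. The exact 95% interval was 63% to 79.1% in ethanol replicate 3 and reached at most 55.9% in a glucose library, while those of ethanol replicates 1 and 2 were wide enough to hold glucose values.

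The other 3 splits overlapped between the groups. HTB1 supplied 66.4% ± 8.8 of H2B in ethanol and 70.4% ± 2.59 in glucose (mean ± SD of 3 libraries; exact permutation p = 0.6). HHT1 supplied 11.1%, 10.7% and 27.5% of H3 in ethanol and 30.5%, 37.2% and 27.2% in glucose, where ethanol replicate 3 lay among the glucose libraries (exact permutation p = 0.2, adjusted 0.4). HHF1 supplied 0%, 77.8% and 58% of H4 in ethanol, on 1, 9 and 81 reads, and 64.5%, 61.4% and 52.6% in glucose (exact permutation p = 0.8). With a single H4 read, the exact 95% interval of ethanol replicate 1 ran from 0% to 97.5%.

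Within the HTA1-HTB1 locus the higher partner was not the same in both media. HTA1 took 71.4%, 57.1% and 60% of the CPM of the locus in ethanol and 25.2%, 29.1% and 37.6% in glucose; the ratio was chosen after its values were seen and is given without a test. The features of this pair differ in length by only 3 nt. The exact 95% intervals were 51.8% to 67.8% in ethanol replicate 3 and at most 45.5% in a glucose library. Those of ethanol replicates 1 and 2, on 5 of 7 and 12 of 21 reads, were 29% to 96.3% and 34% to 78.2%. These 2 libraries alone do not settle which partner was higher. At HTA2-HTB2, HTA2 took 75%, 72.7% and 44.6% in ethanol and 57.1%, 62.3% and 63% in glucose. At HHT2-HHF2, HHT2 took 94.1%, 92.6% and 82.3% in ethanol and 80.6%, 76.9% and 78.4% in glucose.

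**Figure D4:**
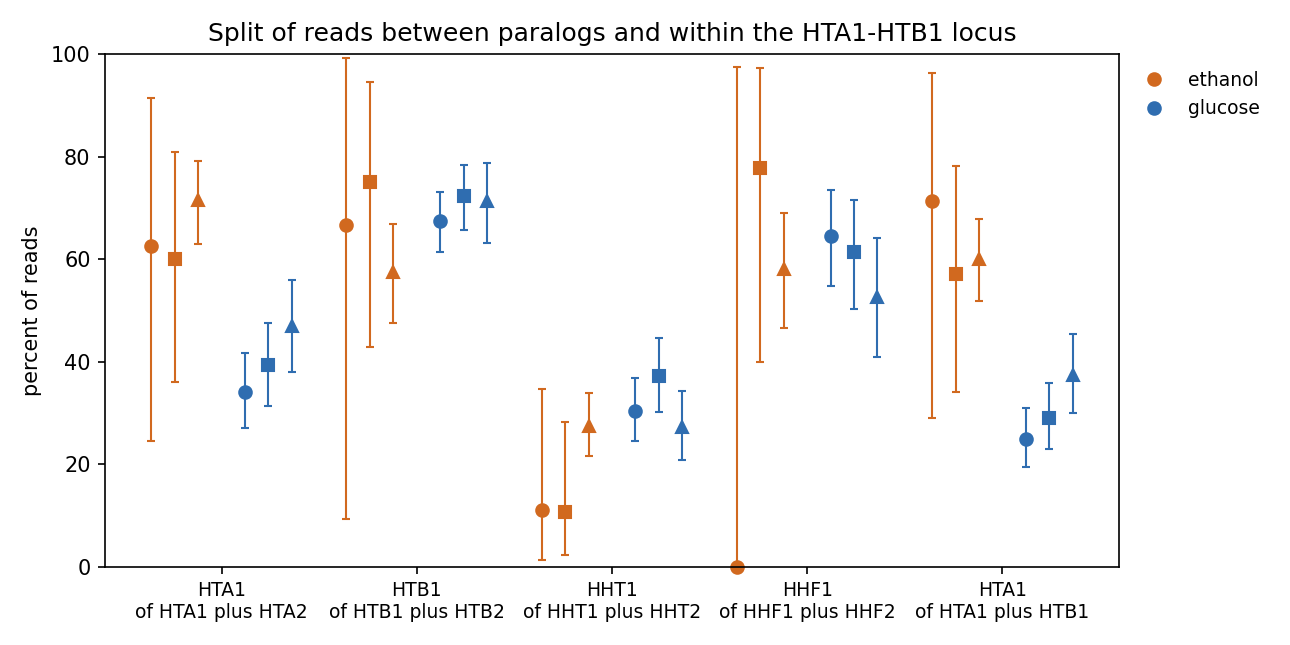
Percent of reads (y axis) that belong to the first-named gene of each pair, for the 4 paralog pairs and the HTA1-HTB1 locus; 1 point per library with its exact 95% binomial interval on rounded reads, ethanol in orange and glucose in blue, circles, squares and triangles for replicates 1, 2 and 3. The ethanol points for HTA1 lie at 60% or above against HTA2 and at 57.1% or above against HTB1, and the glucose points at 46.9% or below and at 37.5% or below.

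Per kilobase of feature, HHT2 was the highest member in ethanol with 4660 ± 1454 nCPM per kb (SD, n = 3), followed by HTA1 with 2261 ± 1242. The libraries' ranges of neighbouring genes in the order overlapped throughout. Each read is 1 RNA strand, so the order per kb need not be the order of molecules. In ethanol HHF1 lay above HTA2 and HHT1 per kb, but below them in mean nCPM (371 against 456 and 450). In glucose HTB1 led with 3233 ± 774 nCPM per kb and HHT2 followed with 3015 ± 220, a pair that did not separate. The only neighbours in the glucose order whose ranges separated were HHT2 and HTA2, the third with 2082 ± 428. HHF2 was last in both groups, with 817 ± 789 nCPM per kb in ethanol and 1075 ± 43.1 in glucose. H3 and H4 from 1 locus were thus far apart in counted level on chromosome 14. HHT2 and HHF2 had 4660 and 817 nCPM per kb in ethanol, and 3015 and 1075 in glucose. HHF2 rests on 1, 2 and 34 reads in ethanol. Its level also depends on how reads that match HHF1 as well were counted, as these copies differ at 1 of the last 90 coding bases.

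Set against mRNAs of similar size, the histone genes had a smaller share in every ethanol library than in any glucose library. The 590 other nuclear mRNA features of up to 500 nt together took 18.3%, 17.7% and 15% of nuclear mRNA without ENO2 in ethanol and 8.2%, 8.2% and 7.66% in glucose. Of the 200 that passed the filter, 84 were higher and 5 lower in ethanol past the limma threshold (44.5% called, beside 33.6% of all features), with a median log2 fold change of 1.03 beside -0.73 for the histone genes and -0.03 for all features. The filter uses the mean of all libraries, so a feature can pass through 1 group alone, and a read is worth more nCPM in ethanol. These counts and the median depend on that filter. With no filter, 74 of the 590 short mRNAs were called, a rate near the 11.7% of all features called in that fit. As a share of the CPM of all nuclear mRNAs up to 500 nt, the 8 histone genes took 1.94%, 2% and 5.38% in ethanol and 7.2%, 7.17% and 5.99% in glucose. The groups did not overlap, with means of 3.11% ± 1.97 and 6.79% ± 0.693 (SD, n = 3) and a ratio of 0.458 (two-sided exact permutation p = 0.1, the lowest possible with 3 against 3). On that scale H2A, H2B and H4 were also without overlap and H3 overlapped. This total holds far more CPM in ethanol, as the shares above show. Without glucose replicates 1, 2 and 3 the calls among short mRNAs numbered 56, 48 and 46 in place of 89, in fits that called 16.9%, 14.3% and 14.3% of all features. The depth of nuclear mRNA was lower in the ethanol libraries, and its part in the length pattern was not tested.

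**Figure D5:**
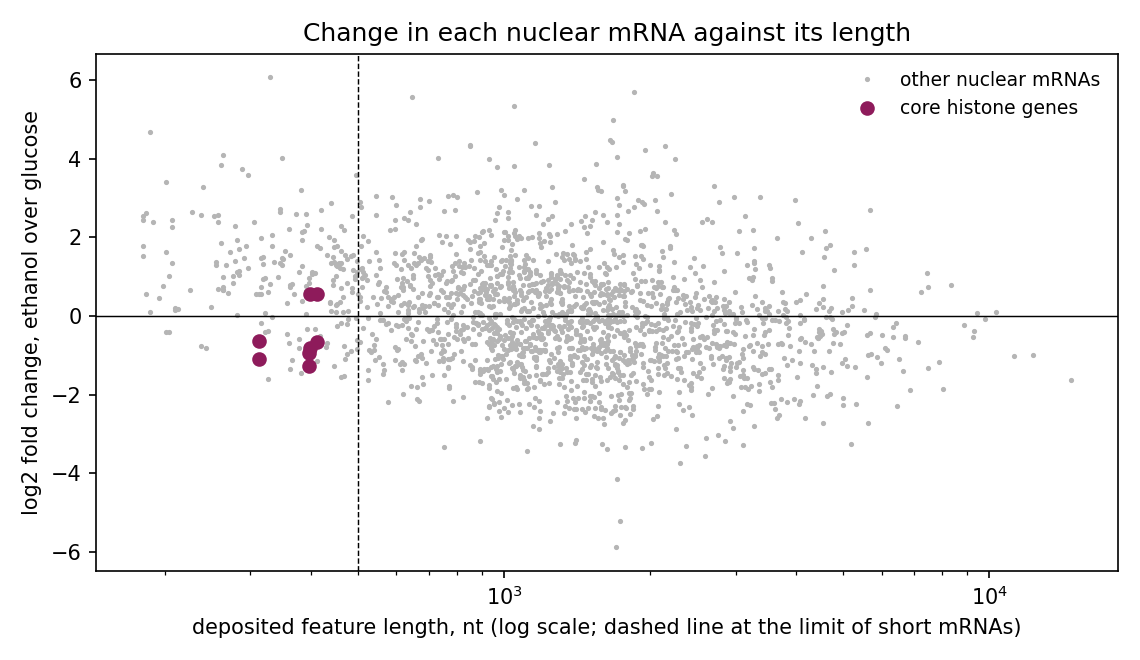
Limma log2 fold change (ethanol over glucose, y axis) of each of the 2008 nuclear mRNAs tested against the length of its feature in nt (x axis, log scale); core histone genes are purple, all others grey, and the dashed line marks 500 nt. Most grey points left of the line lie above 0, with a median of 1.03, and 6 of the 8 histone points lie below 0.

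Genes that act on histones were mostly too low to test. Of the 3 variant and linker genes only HHO1, the linker histone, passed the filter, with 243 ± 156 nCPM in ethanol and 130 ± 27.1 in glucose (SD, n = 3; limma adjusted p = 0.308). Of 12 chaperone genes found, 4 passed the filter, 1 higher and 3 lower in ethanol (median log2 fold change -0.57), and none the threshold; the highest, NAP1, a chaperone of H2A-H2B, had 724, 524 and 254 nCPM in ethanol and 223, 226 and 280 in glucose (limma adjusted p = 0.132). Of 11 regulators of histone genes, YTA7, a chromatin ATPase, was the 1 past the filter, with 121 ± 88.9 nCPM in ethanol and 117 ± 22.3 in glucose (limma adjusted p = 0.874); its log2 fold change was -0.11, so mean and fit differ in sign. SPT10 and the genes of the HIR repressor complex were below the filter.

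The S-phase list holds other genes that act in or just before the stage in which histone mRNAs are made. Of its 17 genes, 6 passed the filter, 3 with a higher and 3 with a lower mean log2 value in ethanol, none past the threshold, and their median log2 fold change was 0.0043. RNR4, a subunit of ribonucleotide reductase, had 483, 524 and 428 nCPM in ethanol and 520, 523 and 429 in glucose (limma log2 fold change -0.03 ± 0.28, SE, adjusted p = 0.931). The summed list took 0.157%, 0.173% and 0.185% of nuclear mRNA in ethanol and 0.229%, 0.251% and 0.215% in glucose, with every ethanol library below every glucose library. The first 2 ethanol shares are of only 8284 and 19087 nuclear mRNA reads, and no counting interval or test was made for this sum. Among single features, groups without overlap were found for 52.9%. The share of cells in S phase was not measured.

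Among 4 genes of HMG-box proteins, which bend DNA, 2 were higher in ethanol past the limma threshold, as were 17.7% of all features. With only 4 genes, in a list chosen with earlier results known, the share of 50% does not measure an excess. The median log2 fold change of the 4 was 0.86. HMO1, the 1 member of this list with a negative fold change and named after its values were seen, had 0, 262 and 159 nCPM in ethanol and 256, 267 and 186 in glucose (limma log2 fold change -0.94 ± 0.62, SE, adjusted p = 0.263). NHP6B, a nuclear chromatin protein, had 785, 602 and 365 nCPM in ethanol and 144, 164 and 163 in glucose (limma log2 fold change 1.56 ± 0.35, SE, adjusted p = 0.0102). ABF2, which packages mitochondrial DNA, had 362, 262 and 285 nCPM in ethanol and 140, 61.6 and 55.9 in glucose (limma log2 fold change 1.42 ± 0.37, SE, adjusted p = 0.019). In ethanol replicate 1, 362 nCPM are worth 3 reads. NHP6A, the remaining gene and also named after its values were seen, had 121, 314 and 206 nCPM in ethanol and 149, 154 and 158 in glucose. The feature named NHP6B is 1053 nt long and the RefSeq gene 300 nt, and it is not known what else it covers. The calls in all lists together numbered 2, with 1 left without glucose replicate 2 or 3, 7 without ethanol replicate 3 and 0 on the deposited CPM. Beside them, 33.6%, 14.3%, 50.2% and 14.1% of all features were called in these fits.

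The genes most like the 8-gene sum over the 6 libraries were CIR2, GIS2, IRA2, SUL1 and SAM3, with Pearson's r of log2(nCPM + 50) between 0.932 and 0.95, given as a description. SUL1, a sulfate permease, had 362, 210 and 1585 nCPM in ethanol and 809, 780 and 773 in glucose. Like the histone sum, these genes were highest in ethanol replicate 3 and lowest in ethanol replicates 1 and 2, and all r values share these 6 libraries and their unequal depth. Between partners of 1 locus, r was 0.0266 for HTA1 and HTB1, 0.857 for HTA2 and HTB2, 0.608 for HHT1 and HHF1 and 0.178 for HHT2 and HHF2.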

How the data were processed

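RNA from isolated mitochondria of 6 cultures was grouped by the carbon source in the titles, and the columns of the tables by table and replicate number. The authors deposited CPM values per feature, which sum to 1000000 per library; STAR 2.5.4a, SAMtools, featureCounts and edgeR are named in the submitters' processing notes, without roles. The CEN.PK113-7D assembly is named per the file headers. CPM are not divided by length. The CPM worth of 1 read was read from steps in the values; 89.1% to 94.9% of nonzero values were whole reads (within 0.01 read), so no count test was made.

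Nuclear mRNA CPM were rescaled to a sum of 1000000 without ENO2. Features with a mean of at least 100 nCPM were tested with limma 3.58.1 in R 4.3.3 (trend, log2(nCPM + 50), Benjamini-Hochberg over 2008 features, threshold 0.05); fold changes on this scale understate those of low genes. For shares, an exact permutation test (two-sided, Python 3.11.15) was used. The limma step was tested on simulated data. Each library pair differed by more than sampling noise (lowest chi-square over its degrees of freedom 1.19).

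The members and lists were chosen with earlier results of these data known. Named genes are the members, list genes past the threshold (otherwise the list's highest) and the 5 features most like the histone sum. List genes had to lie on their RefSeq chromosome; a second feature named CLN1 was left out and VPS75 was not analysed here. Alternatives were other totals, pseudocounts, filters, scalings, no trend, a replicate block, leaving out each library and, added after seeing the data, array weights.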

Additional observations from a re-analysis of the deposited data

How the results depend on the processing

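The lower share of H2A plus H2B, the higher HTA1 part of H2A and the lower H2B share kept their direction under every alternative run, and none of these tests can pass 0.05 with 3 libraries per group. The H3 share difference turned to -0.00455 of all CPM, -0.0778 with ENO2 and -0.722 of short nuclear mRNA, and that of HHT2-HHF2 to -0.00341, -0.0657 and -0.563 percentage points. With ENO2 kept in the total HHT2 and HTA1 had log2 fold changes of -1.24 and -1.07, and on deposited CPM -0.79 and -0.74; HHF1 ranged between -1.92 and 0.077 when 1 library was left out, the upper value without ethanol replicate 1.

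Members past the limma threshold numbered 0, but 7 of 8 with ENO2 kept (all except HTA1, beside 81.8% of all features), 2 of 8 with centring (HTA2 and HTB1, beside 35.1%), 2 of 5 with the filter at 500 nCPM (HTA2 and HTB1, beside 67.5%), 1 of 8 with a pseudocount of 200 nCPM (HTB1, beside 35.6%) and 1 of 8 with array weights (HTB1, beside 41.5%). Genes called in the histone-related lists numbered 2, and 5 with ENO2 kept, 4 with array weights, 4 with centring, 0 on deposited CPM, 0 with the filter at 500 nCPM and 6 with no filter. In the same order, these fits called 33.6%, 81.8%, 41.5%, 35.1%, 14.1%, 67.5% and 11.7% of all features. All nuclear mRNAs called numbered 675, and 241 on deposited CPM and 270 with the filter at 500 nCPM. Short ones numbered 89, and 42 with ENO2 kept, 8 on deposited CPM and 36 with that filter. Beside these counts for short mRNAs, 33.6%, 81.8%, 14.1% and 67.5% of all features were called. Apart from the filters, which test fewer or more features, the cause was not tested.

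When 1 library was left out, the ranges were -0.224 to 0.0208 for the histone share, -0.0373 to 0.0175 for H2A, 0.00042 to 0.0999 for H3, -0.0544 to 0.00381 for H4, -0.0698 to 0.00291 for HHT1-HHF1, 0.0159 to 0.0973 for HHT2-HHF2, -0.0857 to -0.00507 for HTA1-HTB1, -30.5 to 8.39 for HHF1 of H4 and -8.34 to 0.457 for HTB1 of H2B (percentage points), 0 to 5 members, 1 to 7 list genes, 46 to 111 short mRNAs and 287 to 1008 nuclear mRNAs.

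Replicate numbers are not stated to pair the libraries. The correlation of deviations was 0.0125, -0.0275 and 0.0476 for same-numbered libraries and between -0.0744 and 0.0715 for the others. With few reads in ethanol replicates 1 and 2 this check cannot decide whether cultures were paired. With the replicate number as a block, 1 member passed (HTB1, limma adjusted p = 0.0185), beside 698 nuclear mRNAs (34.8%); the exact sign-flip test over same-numbered libraries gave p = 1 for the histone share. Depth limits ethanol replicates 1 and 2 most, with 30 and 69 histone reads.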
